A study of Brassica rapa with 18 samples.

Results

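In leaves of Brassica rapa sprayed with methyl jasmonate (MeJA), 84 genes stood at least 2-fold below the mock level both 24 h and 72 h after spraying. They were chosen from 42186 features by their measured values. Counts were divided by the library total and scaled to CPM (counts per 1000000 counts), and the log2 ratio of MeJA to mock was taken from group means after adding 0.5 CPM to each. A gene was included if its identifier began with Bra, its mean was at least 3 CPM in mock at 24 h and at 72 h, and its log2 ratio was -1 or lower at both times. Of the 41018 Bra identifiers, 19053 passed the CPM floor. The ratios at 24 h and 72 h are therefore a description of the choice, while the libraries of 10 min took no part in it.

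Jasmonates are oxylipin hormones of wounding and defence. In Arabidopsis, a relative of Brassica, bioactive jasmonate binds the receptor COI1, which leads to the destruction of JAZ repressors and frees MYC transcription factors. Sustained jasmonate signalling in leaves is also known to restrain growth, and expression of growth and photosynthesis genes commonly declines under it. The files do not pair the identifiers with gene names, and none of the 84 matched the reference table, so no role is given to any of them and no sequence is shown.

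The plants were wild-type (WT) seedlings aged 10 days when treated, all of the inbred R-o-18 background (var. trilocularis). One arm was sprayed with 50 µM MeJA in water with Tween-20 and the other, the mock, with water and Tween-20 alone. Leaves were taken after 10 min, 24 h or 72 h, with 3 libraries for each treatment and time, 18 in all. The labels call these biological replicates and do not say how many plants each holds, so p-values measure the spread between these libraries, which may be partly technical. The labels' batch field repeats the time, so that each comparison of MeJA with mock lay within a batch and differences between times cannot be told apart from batch and plant age. Whether the tissue carries leaf markers could not be checked without gene names.

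The libraries held between 13505607 and 17796115 counts, so that 3 counts equal 0.222 CPM in the shallowest and 0.169 CPM in the deepest. Replicate pairs were compared by chi-square, leaving out genes under 10 counts. MeJA 10 min replicate 2 stood apart from replicates 1 and 3, at 25.04 and 24.45 per degree of freedom where the other pair of that group gave 6.25. Mock 10 min replicates 2 and 3 were the closest pair, at 1.49 over all genes and 1.39 over the 84. Over the 84 genes, mock 24 h replicates 2 and 3 differed at 123.9 per degree of freedom and mock 72 h replicates 2 and 3 at 69.8. Over all genes those pairs gave 9.35 and 5.69. MeJA 24 h replicate 1 also stood apart over the 84, at 43.7 and 49.1 where the other pair gave 7.65. So did mock 10 min replicate 1, at 25.7 and 26.5. The main counts and medians are given with and without some of these libraries where they rest on them. These are MeJA 10 min replicate 2 and mock replicates 2 and 3 of 24 h and 72 h. The genes are kept as chosen with all libraries unless stated. These repeats were chosen after seeing the data.

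The lowered genes were mostly of modest level. Their median was 13.1 CPM in mock at 10 min, 9.76 CPM at 24 h and 7.07 CPM at 72 h, where the genes past the CPM floor had medians of 15.7, 16.5 and 15.5 CPM. In mock at 24 h, 44 of the 84 were under 10 CPM and 7 were at 50 CPM or more. With MeJA their median was 9.49 CPM at 10 min, 2.17 CPM at 24 h and 2.104 CPM at 72 h. The medians were thus lower at later times in mock as well, and at 24 h and 72 h the MeJA medians lay below every mock median.

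Summed over the 84 genes, mock libraries held 2056, 2566 and 2612 CPM at 10 min in replicates 1, 2 and 3. At 24 h they held 1705, 2487 and 1225 CPM, and at 72 h 1412, 1417 and 922 CPM. The MeJA libraries held 1439, 1791 and 1679 CPM at 10 min. At 24 h they held 633, 272 and 245 CPM, and at 72 h 497, 361 and 449 CPM. MeJA and mock did not overlap in this sum at any of the 3 times. At 24 h and 72 h the choice of the genes favours this, so only the 10 min sums are independent of it. The 3 most abundant genes made up 34.1% of the sum in mock at 10 min. In bulk leaves, fewer cells of a type and less RNA per cell cannot be told apart.

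**Figure D1:**
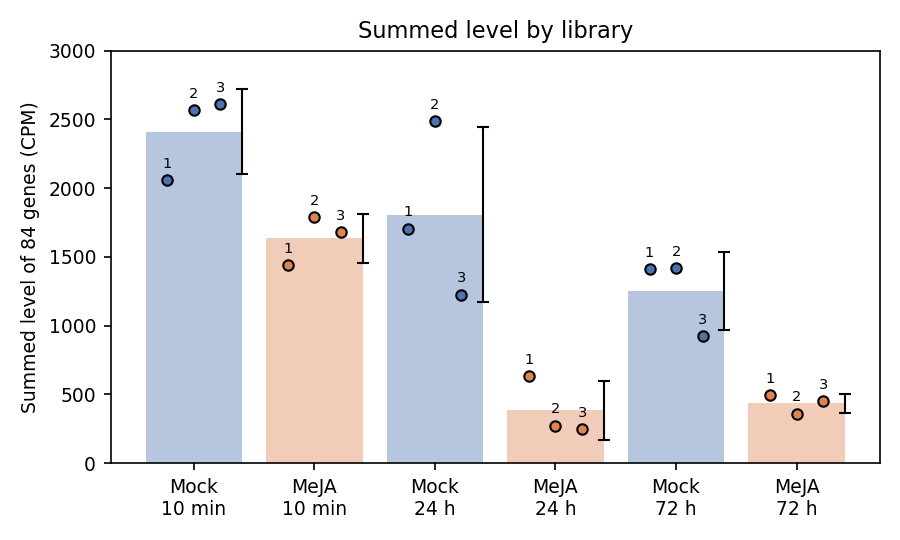
Summed CPM of the 84 lowered genes (y axis) in each library, by treatment and time (x axis); points are libraries with their replicate number, bars are group means and the error bars at their right edge are ± 1 SD (n = 3). MeJA lay below mock at each time, from means of 2411 CPM in mock and 1636 CPM in MeJA at 10 min to 1250.1 and 435 CPM at 72 h. The genes were chosen for lower MeJA means at 24 h and 72 h. The mock libraries of 24 h spread from 1225 to 2487 CPM.

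The values that chose the genes ran from -4.33 to -1.03 on the log2 ratio at 24 h, with a median of -1.91, and from -4.24 to -1.01 at 72 h, with a median of -1.25. At 24 h, 36 of the 84 were at least 4-fold lower and 13 at least 8-fold lower. At 72 h these were 16 and 5. The difference was larger at 24 h than at 72 h in 76 genes and smaller in 8. Without mock 24 h replicate 2 the counts at 24 h were 20 and 4, and without replicate 3 they were 50 and 18. These counts were not repeated without MeJA 24 h replicate 1. Without mock 72 h replicate 2 the counts at 72 h were 8 and 2, and without replicate 3 they were 19 and 6. With all libraries the difference shrank by at least 1 on the log2 scale in 13 genes and grew by as much in none of the 84. Of the genes past the CPM floor, 594 had a log2 ratio of -1 or lower at 24 h and 95 at 72 h. The 84 were 14.1% of the former and 88.4% of the latter. Each time had its own mock libraries.

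**Figure D2:**
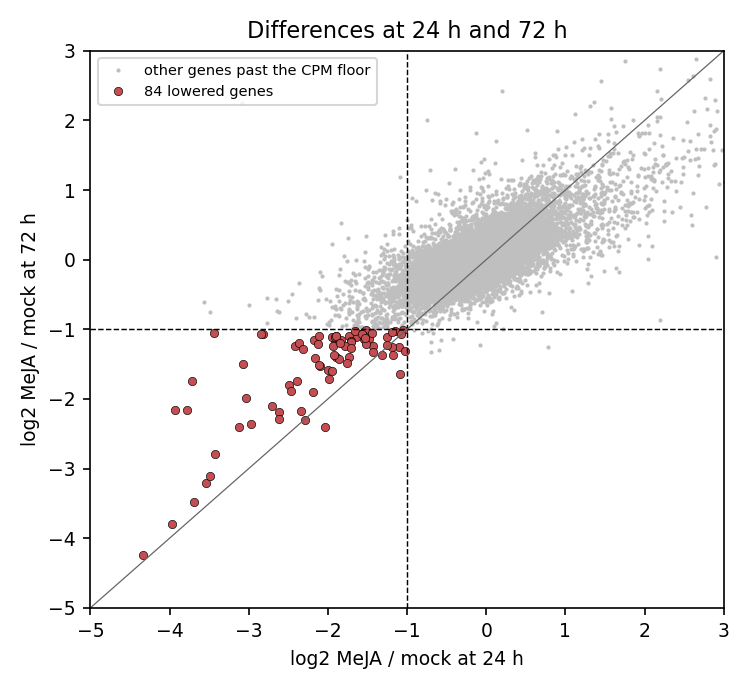
Log2 ratio of MeJA to mock at 24 h (x axis) and 72 h (y axis) for the 84 lowered genes (red) and the other genes past the CPM floor (grey); dashed lines mark -1, the solid line marks equal ratios and both axes end at 3. Of the 84 genes, 76 lie above the solid line, their difference being smaller at 72 h.

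Near the threshold the choice rested on small differences. Just inside, Bra008638 had log2 ratios of -1.05 at 24 h and -1.01 at 72 h, and Bra024382 had -1.51 and -1.02. Just outside, Bra035755 had -1.003 and -0.99, and Bra014243 had -1.36 and -0.98. In Bra008638, mock at 24 h stood at 7.78, 11.9 and 4.54 CPM and MeJA at 5.99, 1.65 and 3.30 CPM, which overlap.

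Chosen with all libraries, 82 of the 84 were called lower at 24 h by edgeR's quasi-likelihood test and 60 at 72 h, and 59 were called at both. Among all 26593 features tested, 13.1% were called lower at 24 h and 3.63% at 72 h, and nothing can be read from the excess, since the same contrasts chose the genes. The MeJA and mock libraries did not overlap for 76 genes at 24 h and 62 at 72 h, where 25.5% and 13.7% of all features tested lay apart in that direction. In each of the 8 genes that overlapped at 24 h and the 22 at 72 h, replicate 3 was the only mock library not above all MeJA libraries. In the 8 genes at 24 h, MeJA replicate 1 was likewise the only MeJA library above mock replicate 3. Leaving out single libraries gave 58 to 82 calls among the 84 at 24 h, the lowest without mock replicate 2. Without that library 2421 of all features were called lower at 24 h, in place of 3490. At 72 h, 16 of the 84 were called without MeJA replicate 2, 26 without MeJA replicate 1 and 34 without MeJA replicate 3. The counts were 24 and 23 without mock replicate 1 or 2, and 76 without mock replicate 3. Over all features, 964 were called lower at 72 h with all libraries. That number was 244, 340 and 693 without MeJA replicate 2, 1 or 3. It was 396, 318 and 736 without mock replicate 1, 2 or 3. Choosing the genes anew gave 68 without mock 24 h replicate 2, 54 without mock 72 h replicate 2 (47 of them among the 84) and 144 without mock 72 h replicate 3, all 84 included.

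The replicates of mock differed in these genes together. Mock 24 h replicate 2 was the highest of its group in 74 of the 84 genes (88.1%) and replicate 3 the lowest in 70 (83.3%), where 40.7% and 42.1% of the genes past the CPM floor had that order. At 72 h mock replicate 2 was highest in 59 genes (70.2%, against 34.3%) and replicate 3 lowest in 74 (88.1%, against 31.2%). Mock replicate 3 was the lowest at both times in 65 genes. In 49 of the 84 it was at least 2-fold below replicate 2 at both times, which held for 0.436% of the genes past the floor. The median log2 ratio of replicate 3 to replicate 2 was -1.42 at 24 h and -1.27 at 72 h, and -0.06 and 0.00 over the genes past the floor. In the 280 genes that were lowered at 24 h and stood above -0.5 at 72 h, mock 24 h replicate 2 was the highest in 58.6% and replicate 3 the lowest in 65%, and mock 72 h replicate 3 was the lowest in 54.3%. The same mock libraries chose the genes, and 1 high mock library raises the mean that the rule uses, so these shares are a description and are not independent of the choice.

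The same held in part for the other groups. At 10 min mock replicate 1 was the lowest in 69 genes (82.1%, against 46.7%), and MeJA replicate 2 was the highest in 54 (64.3%, against 32.9%). At 24 h MeJA replicate 1 was the highest in 69 genes (82.1%, against 50.2%). At 72 h MeJA replicate 2 was the lowest in 52 (61.9%, against 34.8%). The median coefficient of variation between replicates was 52.2% in mock and 52.6% in MeJA at 24 h, and 46.0% and 35.4% at 72 h. Over the genes past the floor it was 10.4% and 13.3% at 24 h, and 8.81% and 8.70% at 72 h. Mock replicate 3 had 14983802 counts at 24 h, between replicate 2 with 14450216 and replicate 1 with 15432288. At 72 h it had the fewest of its group, 15783421, beside 17796115 and 17051335. The part of depth in the order of replicates was not tested.

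**Figure D3:**
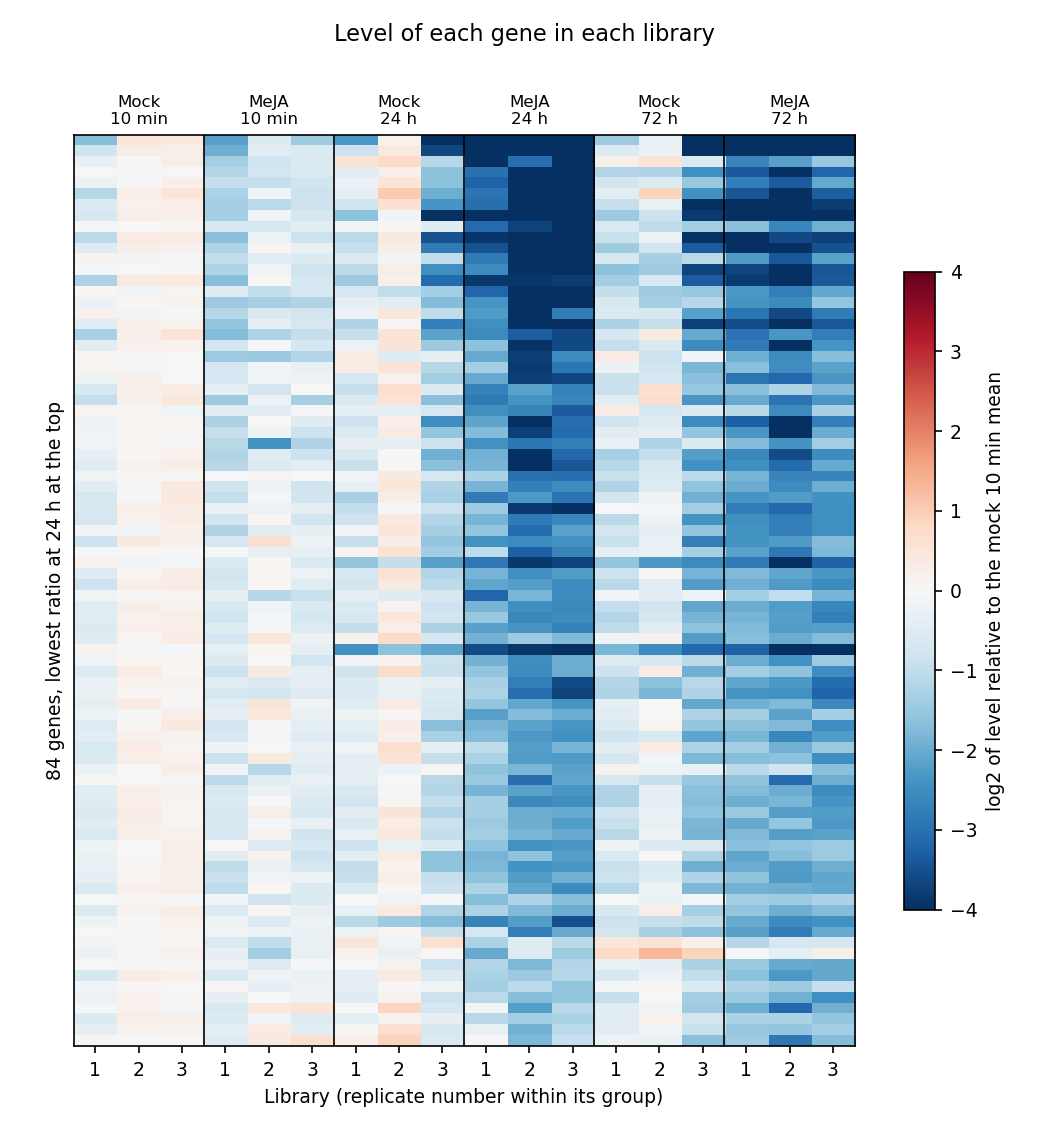
Level of each of the 84 genes (rows, lowest ratio at 24 h at the top) in each of the 18 libraries (columns, by group and replicate number), as log2 of (CPM + 0.5) relative to the mock 10 min mean, with colours ending at -4 and 4. The MeJA libraries of 24 h and 72 h are darkest blue, and replicate 3 of mock at 24 h and 72 h is the bluest mock column of its group, being the lowest in 70 and 74 genes.

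The libraries of 10 min took no part in the choice, so that log2 fold changes between them are independent of it. Calls and p-values of the main fit are not fully so, since the spread of each gene was estimated over all 18 libraries. By edgeR, 82 of the 84 genes had a log2 fold change below 0 at 10 min, with a median of -0.50 and a middle range from -0.72 to -0.38. Over all 26593 features tested, 51.9% lay below 0 and the median was -0.01. A log2 fold change of -0.5 or lower was found in 42 of the 84 (50%), against 4.07% of the genes past the CPM floor. The difference passed the test in 3 genes (3.57%), all lower, where 2.43% of all features were called lower. Among the genes past the CPM floor, 3.2% were called lower and 54.8% lay below 0. The share called is near the background in that fit. It differed with the libraries in the fit. With only the 6 libraries of 10 min, edgeR called 14 of the 84 lower (16.7%), against 1.67% of the features then tested. That fit also had its own filter and scaling, and the cause of the difference was not tested. DESeq2 called 5 (5.95%, against 3.50%). Before adjustment, p was under 0.05 and the change downward in 16 genes (19%), against 10.3% of all features. No gene of the 84 was called higher, where 4.69% of all features were. Since these genes vary together between replicates, they are not independent of each other, and the number below 0 is no measure of how sure the direction is.

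**Figure D4:**
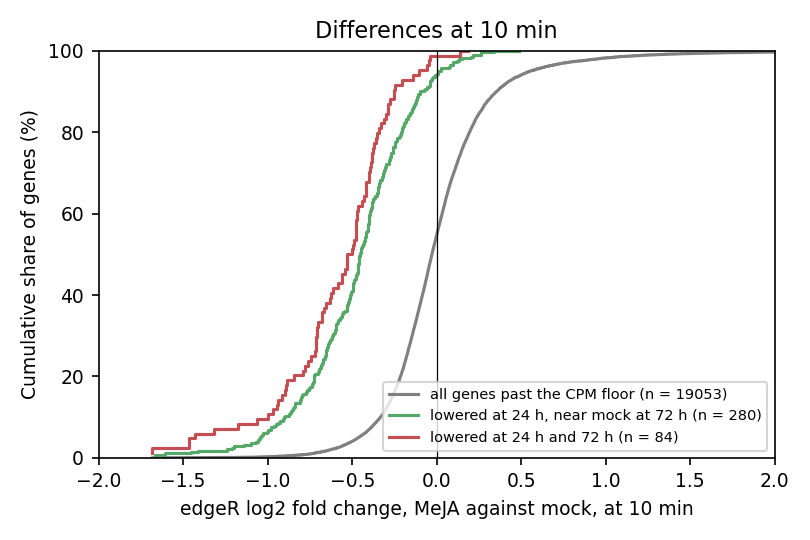
Cumulative share of genes (y axis, %) by edgeR log2 fold change of MeJA against mock at 10 min (x axis, cut at -2 and 2). Curves are the 84 lowered genes (red), 280 genes lowered at 24 h (green) and all 19053 genes past the CPM floor (grey). The green genes had a log2 ratio above -0.5 at 72 h, with no upper limit, which the legend calls near mock. The red and green curves lie left of the grey one, with medians of -0.50, -0.45 and -0.03.

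MeJA and mock libraries lay apart at 10 min, all MeJA values lower, in 25 of the 84 genes (29.8%). This held for 9.68% of all features and 11% of the genes past the CPM floor. Without MeJA replicate 2, which leaves fewer libraries to overlap, 48 genes (57.1%) lay apart, against 13.1% of the features. None of the 84 lay apart in the other direction, against 20.2% of all features. The 3 MeJA libraries took unequal parts in this. Replicate 1 was below every mock library in 70 genes (83.3%), replicate 3 in 51 (60.7%) and replicate 2 in 32 (38.1%). Among the genes past the CPM floor these shares were 25.9%, 24.8% and 33.1%. Replicate 2, the library that stood apart, was thus the nearest to mock in these genes and its share was close to the background. Without it the median log2 fold change of the 84 genes was -0.68, and it was -0.41 without MeJA replicate 1 and -0.66 without mock replicate 1. When mock 10 min replicates 2 and 3, the closest pair, were summed into 1 library, an alternative chosen after seeing the data, 2 of the 84 were called. The number called was 1 without MeJA replicate 2, mock replicate 2 or mock replicate 3. Under scaling by library totals 79 of the 84 lay below 0 at 10 min, with a median of -0.43.

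Of the 3 genes called at 10 min, Bra003573 had the lowest log2 fold change. Its MeJA libraries stood at 3.91, 1.31 and 3.63 CPM and its mock libraries at 8.29, 9.40 and 9.27 CPM, with no overlap. The log2 fold change was -1.68 (SE 0.33; edgeR adjusted p = 0.00736), and it was also called in each of the 13 alternatives run, with adjusted p from 0.000118 to 0.0436. Its level at 24 h was 0.985 ± 0.240 CPM in MeJA libraries and 6.22 ± 1.23 CPM in mock (SD, n = 3). At 72 h it was 2.24 ± 0.884 CPM in MeJA and 5.61 ± 1.94 CPM in mock.

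Bra032670 had the next lowest among the called genes. At 10 min its MeJA libraries stood at 21.0, 20.6 and 25.6 CPM and its mock libraries at 63.3, 55.1 and 57.9 CPM, again with no overlap. The log2 fold change was -1.46 (SE 0.33; edgeR adjusted p = 0.0150). The call was lost without MeJA replicate 2 (adjusted p = 0.0763), mock replicate 2 (0.0544) or mock replicate 3 (0.0543), with log2 fold changes from -1.51 to -1.41. Its mock mean was 58.8 ± 4.13 CPM (SD, n = 3) at 10 min, 53.4 ± 17.5 CPM at 24 h and 53.2 ± 20.6 CPM at 72 h. In MeJA libraries it was 9.29 ± 5.24 CPM at 24 h and 14.1 ± 3.83 CPM at 72 h, these lying below the mock ones at each time.

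The third call, Bra004596, lies outside the naming rule and was picked after its values were seen. At 10 min its MeJA libraries stood at 38.5, 23.9 and 28.5 CPM and its mock libraries at 41.5, 43.1 and 40.2 CPM. The log2 fold change was -0.53 (SE 0.15; edgeR adjusted p = 0.0410), a call lost in 8 of 13 alternatives, with adjusted p from 0.0106 to 0.219. In mock it stood at 39.3 ± 1.92 CPM at 24 h and 38.4 ± 3.59 CPM at 72 h (SD, n = 3), close to its 10 min level. In MeJA libraries these were 14.3 ± 3.13 and 16.0 ± 0.969 CPM.

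Genes with the lower ratio at 24 h stood lower at 10 min as well. The 13 genes at least 8-fold lower at 24 h had log2 ratios from -1.22 to -0.40 at 10 min, with a median of -0.80, and the other 71 had a median of -0.38. Across the 84 genes the log2 ratios at 10 min and 24 h had a Pearson r of 0.62 and a Spearman rho of 0.64, and those at 10 min and 72 h had 0.44 and 0.30. Without mock 72 h replicate 2 the latter were 0.51 and 0.49, and without replicate 3 they were 0.38 and 0.19. Without MeJA 10 min replicate 2 they were 0.59 and 0.39. The former kept between 0.59 and 0.68 when any of the 5 libraries of the repeats was left out. The correlations were not repeated without MeJA 24 h replicate 1 or mock 10 min replicate 1. These are descriptions across genes, which share their libraries and are not independent. Of the 13 genes, 9 were still at least 4-fold lower at 72 h.

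The lean at 10 min was not limited to genes that stayed low. Under the same CPM floor, 280 genes had a log2 ratio of -1 or lower at 24 h and above -0.5 at 72 h. At 10 min their median log2 fold change was -0.45 and 93.6% lay below 0, beside -0.50 and 97.6% for the 84. Of the 280, 69 (24.6%) were called lower at 10 min, beside 3.57% of the 84 and 2.43% of all features. Their replicates were closer: the median coefficient of variation at 10 min was 8.82% in mock and 17.3% in MeJA, where the 84 had 19.9% and 27.3%. Their median level in mock at 10 min was higher, at 18.5 CPM beside 13.1 CPM. The part of spread and level in the calls was not tested. The difference at 24 h was smaller in the 280, with a median log2 ratio of -1.16, beside -1.91 in the 84. Without MeJA 10 min replicate 2 their calls dropped to 12 of 280 (4.29%), beside 1 of 84 (1.19%) and 0.286% of all features, and their median at 10 min was -0.39. The reverse pattern, -1 or lower at 72 h and above -0.5 at 24 h, was found in 3 genes.

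In mock, most of the 84 genes were lower at later times. Relative to mock at 10 min, the median log2 ratio was -0.36 at 24 h and -0.85 at 72 h, against 0.07 and -0.02 over the genes past the CPM floor. The median at 24 h was -0.73 without mock 24 h replicate 2 and -0.09 without replicate 3, and that at 72 h was -1.13 without mock 72 h replicate 2 and -0.57 without replicate 3. At 72 h, 81 of the 84 were below their mock level of 10 min, and 27 (32.1%) were at least 2-fold below it, as were 1.05% of the genes past the floor. In the 280 genes lowered at 24 h and above -0.5 at 72 h, the mock medians were -0.18 at 24 h and -0.43 at 72 h. Of these, 7.5% were at least 2-fold below their mock level of 10 min at 72 h. Among the 84, mock stayed within 2-fold of its 10 min level at both later times in 55 genes, and in 33 without mock 72 h replicate 2. The floor of 3 CPM in mock at 24 h and 72 h left out genes whose mock level was lower still. These differences also compare batches, and no test is given because the rule used the later mock libraries.

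MeJA levels at 24 h and 72 h lay below the mock level of 10 min in all 84 genes, at least 2-fold below it in 80 at 24 h and in 82 at 72 h. Among the genes past the CPM floor, 55.3% and 49.4% lay below it, and 4.94% and 2.84% at least 2-fold below. The rule used these MeJA means and the comparison crosses batches, so the counts are a description. From 24 h to 72 h the MeJA level of the 84 had a median log2 ratio of 0.03, and it stayed within 2-fold in 73 genes. Over the same span the mock level was lower at 72 h in 74 genes, with a median of -0.47. Among the genes past the CPM floor, 64.6% were lower in mock over that span, with a median of -0.09. Of the 84, both arms were lower at 72 h in 38 genes, and mock was lower and MeJA higher in 36. In 9 both were higher, and in 1 mock was higher and MeJA lower. Among the 76 genes whose difference was smaller at 72 h, mock was lower at 72 h than at 24 h in 68 and MeJA was higher in 44, with both in 36.

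The most abundant of the 84 were Bra021222 and Bra021220. In mock, Bra021222 stood at 290.9, 386 and 385 CPM at 10 min, 236, 289 and 243 CPM at 24 h and 152, 99.8 and 153 CPM at 72 h. With MeJA it stood at 226, 207 and 246 CPM at 10 min, 151, 43.8 and 26.5 CPM at 24 h and 68.2, 65.4 and 37.6 CPM at 72 h. The MeJA libraries were below the mock libraries at every time, and replicate 1 at 24 h was far above the other 2. At 10 min the log2 fold change was -0.71 (SE 0.39; edgeR adjusted p = 0.292).

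Bra021220 stood in mock at 226.8 ± 37.9 CPM at 10 min, 171.8 ± 18.3 CPM after 24 h and 93.1 ± 17.6 CPM after 72 h (SD, n = 3). In MeJA libraries it stood at 164.5 ± 9.92, 47.9 ± 38.7 and 41.6 ± 13.7 CPM in the same order. At 24 h its MeJA replicate 1 was high too, at 91.8 CPM beside 33.1 and 18.7 CPM. The rows of these 2 genes lie on either side of Bra021221 in the deposited table, which held at most 0.233 CPM in any group mean. One other pair, Bra023982 and Bra023981, lies in adjacent rows. Whether reads were shared within these pairs is unknown here.

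The lowest ratios over both times were those of Bra031773 and Bra024932. Bra031773 stood at 6.66, 32.4 and 30.2 CPM in mock at 10 min, 4.28, 25.7 and 0.0667 CPM at 24 h and 8.09, 18.6 and 0.127 CPM at 72 h. With MeJA it stood at 4.77, 15.8 and 8.29 CPM at 10 min, and held 1 count over the 3 libraries at 24 h and none at 72 h. At 24 h its 439 mock counts made it 461-fold lower (95% exact binomial interval 82.3 to 18247). At 72 h it was at least 158-fold lower, taking 3 counts in the whole group as the floor for MeJA. These intervals and floors cover counting error only. Mock replicate 3 was itself almost without counts at both later times, inside the MeJA range at 24 h. At 10 min the log2 fold change was -1.32 (SE 1.00; edgeR adjusted p = 0.470), with overlap.

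Bra024932 also had its lowest mock values in replicate 3 at both later times. In mock it stood at 10.8, 23.4 and 22.6 CPM at 10 min, 10.3, 24.5 and 1.07 CPM at 24 h and 12.8, 15.7 and 0.634 CPM at 72 h. With MeJA it stood at 4.48, 13.9 and 12.5 CPM at 10 min, 0.557, 0.264 and 0.0568 CPM at 24 h and 0.0582, 0.172 and 0.465 CPM at 72 h. Mock replicate 3 was again more than 10-fold below replicate 2 at both later times, though above all MeJA libraries.

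Among genes of at least 10 CPM in mock with no overlap at either time, Bra017697 had the largest gain in ratio from 24 h to 72 h. Its mock libraries stood at 99.4, 105 and 107 CPM at 10 min, 93.6, 109.8 and 73.3 CPM at 24 h and 68.6, 51.0 and 39.1 CPM at 72 h. With MeJA they stood at 66.8, 64.9 and 75.7 CPM, then 11.7, 7.46 and 4.89 CPM, then 31.9, 16.8 and 27.2 CPM. Its log2 ratio went from -3.45 at 24 h to -1.05 at 72 h, with a higher level in MeJA and a lower one in mock. At 10 min the log2 fold change was -0.66 (SE 0.23; edgeR adjusted p = 0.0983) with no overlap.

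Bra024939 was next, with a change from a log2 ratio of -3.93 at 24 h to -2.16 at 72 h. Its mock means were 28.2 ± 5.12 CPM at 10 min, 34.1 ± 18.9 CPM at 24 h and 30.9 ± 11.0 CPM at 72 h (SD, n = 3), and its MeJA means were 15.1 ± 4.07 CPM at 10 min, 1.77 ± 1.05 CPM at 24 h and 6.53 ± 2.85 CPM at 72 h. From 24 h to 72 h its MeJA mean was thus higher and its mock mean slightly lower.

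The opposite order, a lower ratio at 72 h, was seen in 8 genes and was under 1 on the log2 scale in each. In Bra013175 the log2 ratio was -2.04 at 24 h and -2.40 at 72 h. Its mock libraries at 72 h stood at 39.1, 37.2 and 14.8 CPM and its MeJA libraries at 5.23, 4.08 and 6.75 CPM. At 24 h MeJA replicate 1 stood at 14.1 CPM, above the other 2 at 2.31 and 1.76 CPM. In Bra002436 the log2 ratios were -1.18 and -1.37. Neither difference between the times was tested.

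**Figure D5:**
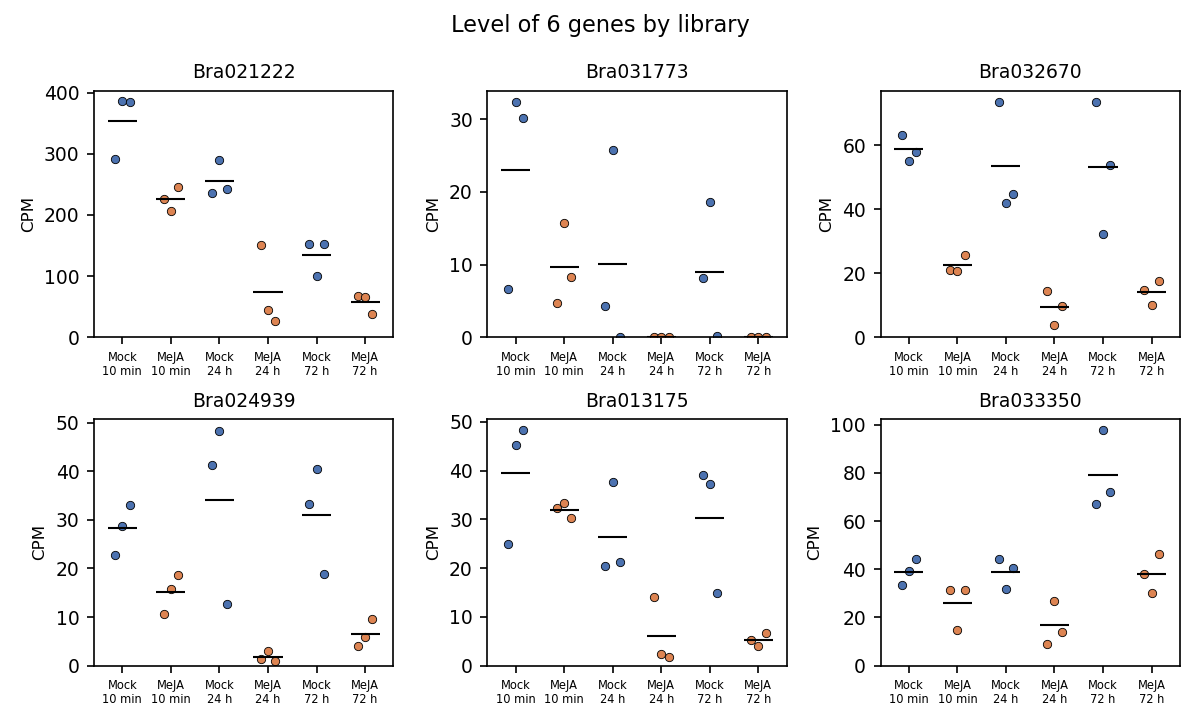
CPM (y axes, from 0) of 6 of the lowered genes in each library (points; mock blue, MeJA orange, replicates 1 to 3 from left to right) by treatment and time (x axes), with group means as lines. Bra032670 lay lower with MeJA at every time, mock replicate 3 of Bra031773 stood at 0.127 CPM at 72 h, and mock of Bra033350 was highest at 72 h.

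The course in mock differed most between Bra033350 and Bra008792. Bra033350 had the largest increase in mock, from 33.3, 39.4 and 44.1 CPM at 10 min to 66.9, 97.9 and 72.1 CPM at 72 h. With MeJA it stood at 31.2, 14.9 and 31.3 CPM at 10 min, 9.19, 26.9 and 14.1 CPM at 24 h and 38.0, 30.1 and 46.2 CPM at 72 h. At 72 h its MeJA level was back near the mock level of 10 min, and it counted as lowered because mock then stood at 79.0 ± 16.6 CPM (SD, n = 3).

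Bra008792 had the largest decline in mock, from 21.4 ± 1.96 CPM at 10 min to 4.89 ± 1.49 CPM at 24 h and 3.64 ± 1.85 CPM at 72 h (SD, n = 3). In MeJA libraries it was 18.6 ± 3.51 CPM at 10 min, 0.979 ± 0.349 CPM at 24 h and 1.04 ± 0.658 CPM at 72 h. The MeJA libraries lay below the mock ones at 24 h and 72 h and overlapped them at 10 min, where the log2 fold change was -0.28 (SE 0.28; edgeR adjusted p = 0.603).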

How the data were processed

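Messenger RNA of leaves was sequenced with a stranded, paired-end protocol, per the labels' protocols. What the authors deposited is a table of counts, whole numbers of reads for each gene in each library, with no normalisation. Per the submitters' processing notes the tools were FastQC, TopHat2, HTSeq and edgeR. Their versions and roles, the genome build and the strand setting used for counting are not stated, so reads shared by near-identical copies or overlapping genes may have been assigned either way.

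CPM values were computed by library total. The genes, lists and tests were chosen with earlier results of these data known. All features were tested in 1 model (edgeR 4.0.16, R 4.3.3; filterByExpr on the 6 groups, leaving 26593; TMM scaling; quasi-likelihood F test; 6 group means over 18 libraries, Benjamini-Hochberg adjustment). A call is an adjusted p under 0.05. Each SE was taken as the absolute log2 fold change divided by the square root of the test's F value. DESeq2 1.42.0, other scalings, filters and pseudocounts, a replicate block and leaving out each library were alternatives. The identifiers named are 2 each of the most abundant, the deepest, those called at 10 min, those falling mostly at 24 h or at 72 h, and those next to the threshold on either side, plus 1 each with the largest rise and fall in mock. No gene was called higher at 10 min, so that class is empty. Of the identifiers in the count table, 1 matched a gene of RefSeq's table (CAAS_Brap_v3.01), and it was not among the lowered genes. The planned gene lists and tissue markers could therefore not be filled. No value column of the table was left unused.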

Additional observations from a re-analysis of the deposited data

How the results depend on the processing

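The number of lowered genes, 84, was 39 with a pseudocount of 2 CPM and 25 with a floor of 10 CPM, and ran from 54 to 144 when 1 library of 24 h or 72 h was left out. Calls among them at 10 min, 3 in all, were 8 with a replicate block (9.52%, against 2.12% of all features). They were 14 with only the libraries of 10 min in the fit and 5 by DESeq2. With a library left out they were 1 to 3 (1.19% to 3.57%), against 0.286% to 3.86% of all features called lower. Their calls ran from 58 to 82 at 24 h and from 16 to 76 at 72 h with a library left out. Over all features, calls ran from 358 to 2769 at 10 min, from 5026 to 7613 at 24 h and from 1023 to 2344 at 72 h, and 4818 were called with only the 24 h libraries. Summing mock 10 min replicates 2 and 3, chosen after seeing the data, left 562 at 10 min in place of 1895. The cause of these changes was not tested. The 55 genes with mock within 2-fold were 26 at 1.5-fold and 33 to 70 with a mock library left out. The median at 10 min stayed between -0.68 and -0.41 in the 13 alternatives, with 78 to 82 genes below 0.

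Scaling by library totals moved the median log2 fold change of all features at 24 h from -0.01 to -0.13. It gave 295 lower and 1756 higher features at 10 min in place of 647 and 1248, 5756 and 2927 at 24 h in place of 3490 and 4097, and 669 and 1919 at 72 h in place of 964 and 1625. With only the 10 min libraries in the fit, Bra021222, Bra021220, Bra017697 and Bra024939 were called lower at 10 min, and with the block Bra031773 and Bra017697 were.

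Whether replicate numbers pair the libraries was not settled. Same-numbered MeJA and mock libraries had correlations of their deviations from -0.21 to 0.32, and differently numbered ones from -0.26 to 0.25. Not every one of the 9 correlated best with its own number. With 3 libraries in a group, deviations from the group mean are a weak check of pairing.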
